A study of Mus musculus with 4 samples.

Results

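The 81 genes described here encode proteins of the cytosolic ribosome. The data are positions at which TOP2B was trapped on DNA in mouse cortical neurons. Members were all protein-coding genes of the RefSeq annotation of GRCm38.p6 whose symbol is Rpl or Rps with a number and at most one suffix letter a, l, x or y, with Rplp0, Rplp1, Rplp2 and Rpsa added and the Rps6k kinase genes left out. They are 81 of 21631 protein-coding genes on the 19 autosomes and X. A member was given a summit, the highest point of a peak, when that summit lay in the gene or within 5 kb of it.

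All cells were dissociated cortical neurons of wild-type Swiss-Webster mouse embryos at embryonic day 16, kept in neurobasal medium with B27. All received etoposide at 50 µM for 30 min, so every library shares the drug and the list holds a single condition. There are 4 libraries in the labels, 2 from chromatin immunoprecipitation (ChIP) with a TOP2B antibody and 2 inputs, with no word on whether they stem from separate cultures. All values come from 1 peak list that the authors pooled, which gives no spread between replicates, and sequencing depth is unknown. The labels record no sorting of cells, and the list holds no expression values with which the neuronal label could be checked against markers.

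TOP2B is a type II topoisomerase that relieves supercoils by cutting both strands of DNA, passing another duplex through and sealing the cut. While the strands are open the enzyme is covalently bound to them, and etoposide blocks the sealing step, so that this cleavage complex can be isolated with its DNA. Ribosomal protein genes are short, are transcribed at a high rate in nearly every cell, and many carry snoRNA genes in their introns. Their mRNAs characteristically begin with a C followed by a run of pyrimidines, the terminal oligopyrimidine tract through which growth signals control their translation.

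Of the 81 members, 17 had a summit in the gene or within 5 kb (21.0%, 95% Wilson interval 13.5 to 31.1), against 46.0% of all protein-coding genes. The members are short, with a median length of 3175 bp (range 592 to 11774) against 17329 bp for all protein-coding genes. Among the 8605 protein-coding genes no longer than the longest member, 25.2% had such a summit, a value inside the members' interval. Their median length was 4285 bp, so they are limited in length but not matched to the members. The 17 members had 19 distinct summits in 1090 kb of gene and flank, or 1.74 summits per 100 kb (exact Poisson interval 1.05 to 2.72), where all protein-coding genes had 1.68 and those up to the longest member 2.05. Both of these densities lie inside the members' interval. Intervals here cover counting error only. The list of members was chosen with earlier results of these data known, and counts are given as descriptions without a test.

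**Figure D1:**
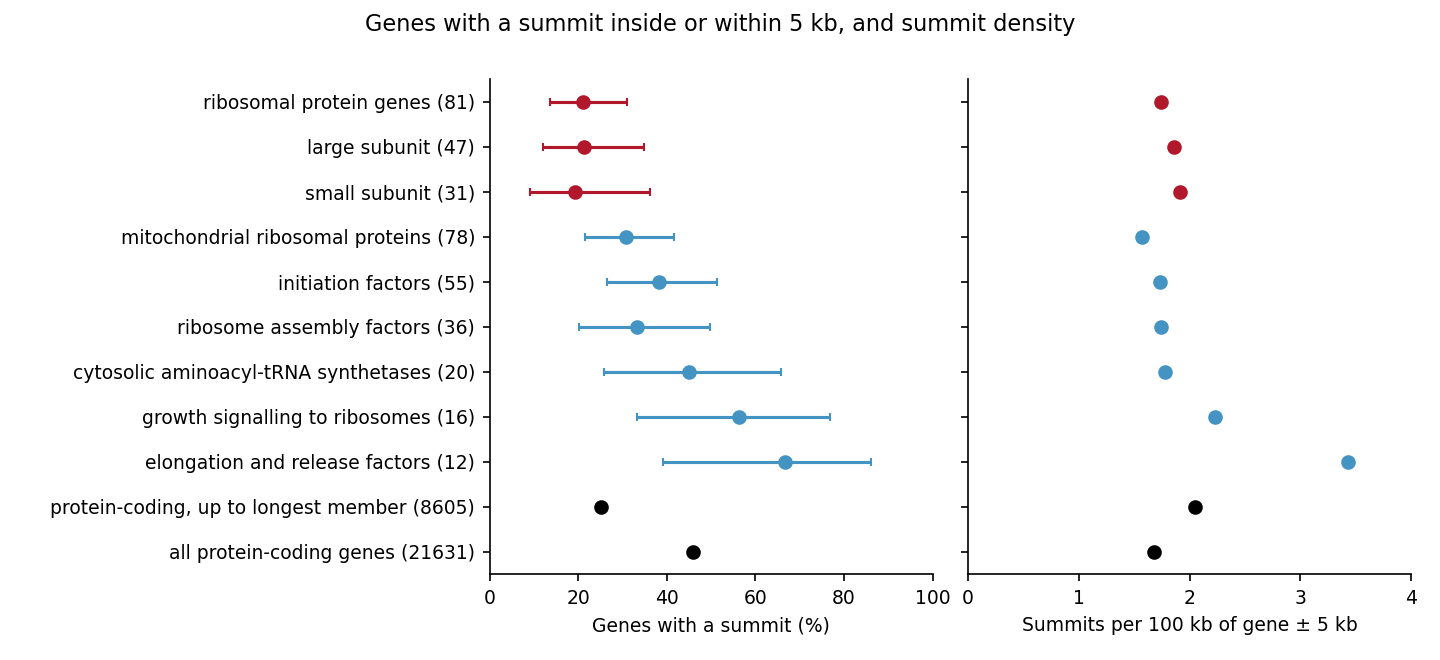
The left panel plots the percentage of genes with a summit in the gene or within 5 kb, with 95% Wilson intervals, and the right panel plots summits per 100 kb of gene and flank, for ribosomal protein genes (red), other translation lists (blue) and protein-coding genes (black), with the number of genes in brackets. Ribosomal protein genes lie at 21.0% on the left, below 46.0% for all protein-coding genes, while on the right they lie at 1.74 beside 1.68.

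Narrower rules gave lower counts, near those of genes no longer than the longest member. Summits inside the gene were found in 7 of 81 members (8.64%, Wilson interval 4.25 to 16.8), against 36.6% of all protein-coding genes and 11.9% of those up to the longest member. Within 1 kb the count was 10 of 81 (12.3%, interval 6.85 to 21.3), against 38.6% and 14.9%. Both shares of the shorter genes lie inside the members' intervals. Inside the genes the density was 2.39 summits per 100 kb (exact Poisson interval 0.962 to 4.93) against 2.79 for protein-coding genes up to the longest member. A pair of summits was found at 4 members, among them Rpsa, Rpl10a and Rpl13a (4.94%), and no member had more. Of all protein-coding genes, 21.9% had 2 or more, a share not computed for genes up to the longest member.

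Both ribosomal subunits were represented. Of 47 large subunit members, 10 had a summit (21.3%, Wilson interval 11.99 to 34.9), namely Rpl10a, Rpl12, Rpl13a, Rpl15, Rpl18, Rpl19, Rpl26, Rpl27a, Rpl29 and Rpl31. Of 31 small subunit members, 6 had a summit (19.4%, interval 9.19 to 36.3), among them Rps10, Rps18, Rps20, Rps25 and Rpsa. Of the 3 genes of the P-stalk, the acidic arm of the large subunit that recruits elongation factors, Rplp2 had a summit while Rplp0 and Rplp1 had none within 5 kb. The intervals of the subunits overlap widely.

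The fold enrichment of each peak is a linear ratio over control given by the authors' caller. That it sets ChIP over input is read from the layout of the list, since the labels do not say which libraries were pooled. At members it was close to that of the whole list. Over the 19 summits the median fold was 2.94 (range 2.27 to 3.98), and over all 35505 summits on the chromosomes it was 2.77 (quartiles 2.49 and 2.94). Peaks held few fragments. The reconstructed pileup at the summit ran from 13 to 22 fragments with a median of 16, against a median of 15 over the list. The most common control level, 4.78, stood under 16 of the 19 summits (84.2%) and under 71.1% of all summits. Folds are therefore tied in steps of a single fragment. The deposited q was 0.05 or less at 6 of the 19 summits (31.6%) and at 23.4% of all summits. By gene, 75 of 81 members (92.6%) had no such summit, against 82.0% of all protein-coding genes and 92.4% of those up to the longest member.

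**Figure D2:**
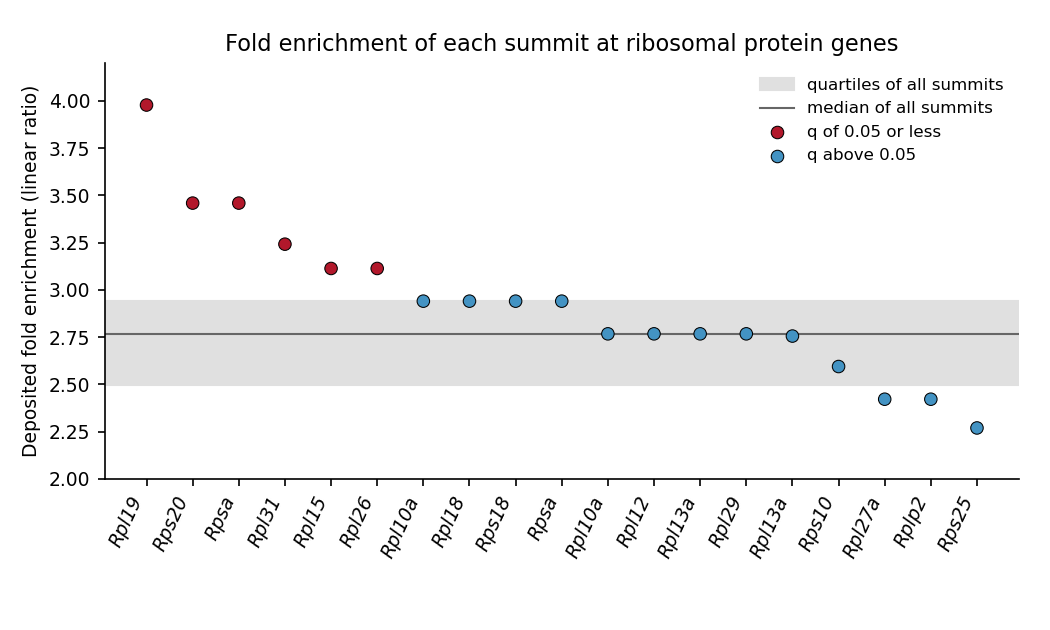
Each point is the deposited fold enrichment of one of the 19 summits, labelled by a member in whose window it lies, in red where q is 0.05 or less. The grey band gives the quartiles of all summits, 2.49 to 2.94, and the line their median of 2.77. The 6 red summits lie above the band, from 3.11 to 3.98, and the lowest point is Rps25 at 2.27.

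Rpl19, which encodes a large subunit protein lying at the interface of the subunits, held the strongest summit of the family. Its peak spanned chromosome 11 from 98027215 to 98027447, with a fold of 3.98, 22 fragments at the summit and a q of 0.000497. In the whole list 99 summits had a higher fold. The summit at 98027336 lay inside the gene (98022003 to 98030493, forward strand), 412 and 626 bp past the 2 start sites in the promoter table. The RefSeq tables differ here, as the gene interval begins well before either listed start and the summit lies 5333 bp from that end. The window also reaches Cacnb1, a calcium channel beta subunit gene, but Rpl19 was the nearest protein-coding gene.

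Rpsa, a small subunit protein gene also known as the laminin receptor, and Rps20, a small subunit gene, followed with equal values. Both had a fold of 3.46, with 19 fragments and a q of 0.0102, a fold reached by 5.81% of all summits. The Rpsa summit lay on chromosome 9 at 120127217, 549 bp upstream of its start and outside any listed gene, with Slc25a38, a mitochondrial glycine carrier gene, also within 5 kb. A weaker Rpsa summit of fold 2.94 and q 0.0675 lay 3751 bp beyond its 3′ end, inside the lncRNA gene Gm5922. The Rps20 summit lay on chromosome 4 at 3836841, 1186 bp beyond the higher-coordinate end of the gene, inside the lncRNA gene Gm32823.

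Rpl31, Rpl15 and Rpl26, all large subunit genes, complete the members with a q of 0.05 or less. Rpl31 had a fold of 3.24 and a q of 0.0173 on chromosome 1 at 39371194, inside the gene and 717 bp before its 3′ end. Rpl26 had a fold of 3.11 and a q of 0.0390 on chromosome 11 at 68901694, only 128 bp past its start, the summit nearest to a start in the family. Rpl15 had the same fold and q at 18273831 on chromosome 14, but that summit lay 2845 bp upstream, inside Nkiras1, a gene for a Ras-like protein that binds inhibitors of NF-κB. Thus 5 of these 6 strongest summits had the member as their nearest protein-coding gene, and Rpl15 did not.

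At fold 2.94, with 16 fragments and a q of 0.0675, 3 further summits each lay inside a neighbouring gene and past the 3′ end of the member. That of Rpl10a, whose product forms the L1 stalk, was at 28332819 on chromosome 17, inside Tead3, a transcription factor gene. The Rpl18 summit, at 45722476 on chromosome 7, lay inside Fam83e under the widest peak of the family, 660 bp against a median of 223 bp. The Rps18 summit, at 33950528 on chromosome 17, lay inside B3galt4, a galactosyltransferase gene. For these 3 summits the nearest protein-coding gene was not the ribosomal one.

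Rpl13a (chromosome 7, 45125563 to 45128745, reverse strand), a large subunit gene whose product is also known for silencing the translation of inflammatory mRNAs, had summits on both sides and none inside. The summit at 45129376 lay 631 bp upstream of its start, outside any listed gene, with a fold of 2.77 and a q of 0.110. The other, at 45121483, lay 4080 bp past its 3′ end, with a fold of 2.76 and a q of 0.0884. Neither reached a q of 0.05. Some summits lie in the windows of more than a single member, and each was counted once among the 19.

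The remaining summits were weaker. Folds of 2.77 were found inside Rpl29, inside Rpl10a and 4500 bp past the 3′ end of Rpl12, the last nearest to Slc2a8, a glucose transporter gene. Rps10, a protein of the small subunit head, held a summit of fold 2.59 and q 0.177 inside the gene. Rpl27a had a fold of 2.42 with a q of 0.272, 139 bp past its start. Rplp2 had the same fold and q 3733 bp past its 3′ end, nearest to Pnpla2, a triglyceride lipase gene. Rps25, needed for initiation at some internal ribosome entry sites, had the lowest fold, 2.27 with a q of 0.313, inside its neighbour Ccdc84. Folds at or above 2.42 make up 86.4% of the list, so these last summits are among its weakest.

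**Figure D3:**
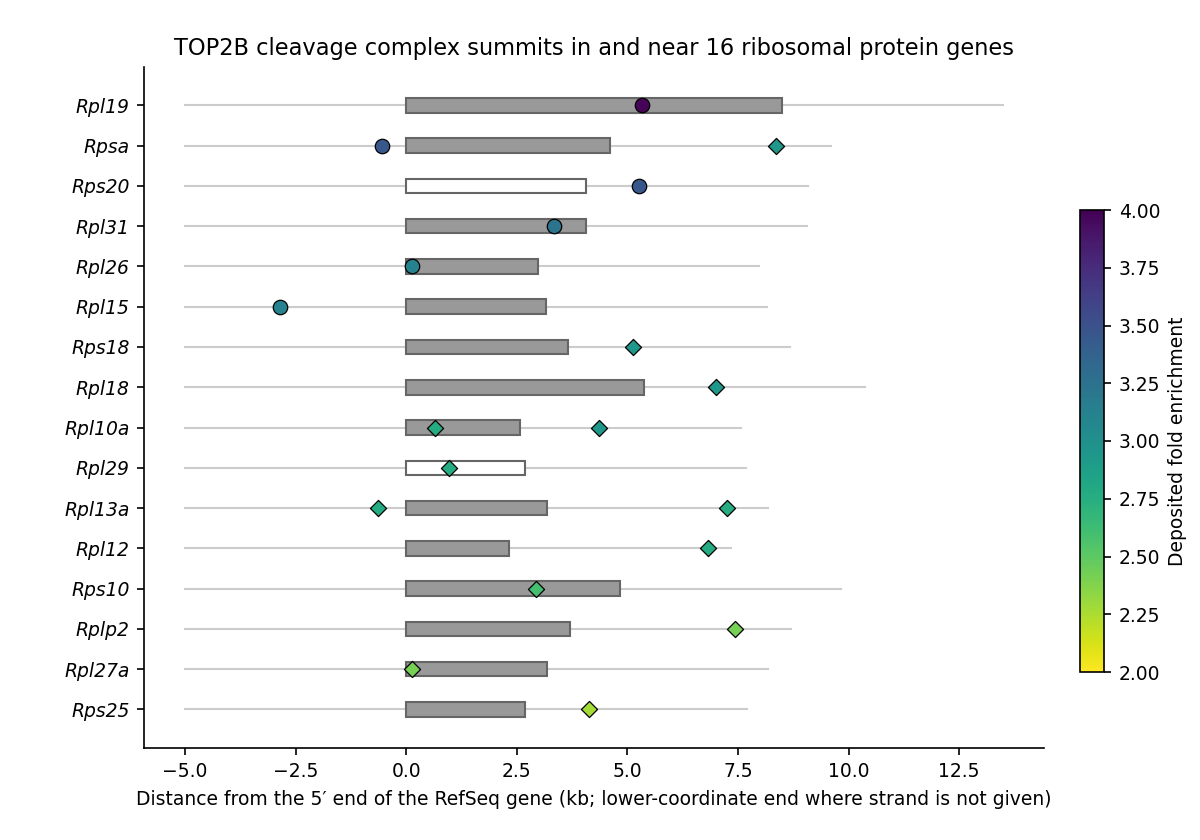
Gene bodies (bars, white where strand is not given) of 16 of the members with a summit are drawn to scale from the 5′ end, with flanks of 5 kb (thin lines), and points mark summits, coloured by fold enrichment, as circles where q is 0.05 or less and diamonds otherwise. The Rpl19 bar follows the gene interval, which begins before its listed starts. Summits lie inside 7 genes, and the flanking ones reach up to 4500 bp past a 3′ end (Rpl12).

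By place, 7 of the 19 summits lay inside a member, 5 inside another protein-coding gene, 2 in an lncRNA gene only and 5 outside listed genes. The member was the nearest protein-coding gene for 12 of 19. Another protein-coding gene outside the family was within 5 kb of 14 of them. Ribosomal protein genes have close neighbours more often than most, with 60 of 81 (74.1%) having another protein-coding gene within 5 kb against 49.7% of all protein-coding genes. A summit was found at 14 of the 60 members with such a neighbour and at 3 of the 21 without. The same split was not computed for all protein-coding genes, nor the places for all summits, so these counts describe the members only. Assignment of a flanking summit to the ribosomal gene and not to its neighbour was not tested.

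Strand was known for the 61 members matched in the RefSeq promoter table of GRCm38.p6. Their 17 pairings of gene and summit fell 3 upstream, 6 inside and 8 downstream. Of the 11 in the flanks, 8 were downstream (72.7%, Wilson interval 43.4 to 90.3). Protein-coding genes up to the longest member had 53.2% of flank summits downstream, a value inside that interval. A summit within 1 kb of the outermost listed start was found at 6 of 61 members (9.84%, Wilson interval 4.59 to 19.8), against 4.28% of the 17274 protein-coding genes with a listed start. These 6 were Rpl10a, Rpl13a, Rpl19, Rpl26, Rpl27a and Rpsa. The background lies just under the lower bound, a difference that rests on 6 genes and on the limit of 1 kb. Only the summits of Rpl26 and Rpl27a, at 128 and 139 bp, lay within 500 bp of the outermost start. The others of the 6 lay 549 to 662 bp from it. No such share was computed for genes up to the longest member.

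Sequence around those starts is shown because these are the members whose summits lie nearest to a listed start. The peaks themselves lie outside the stretches, apart from 1 bp of the Rpl27a peak, so the letters describe the neighbourhood of a summit and not the DNA under it. Each line runs from 200 bases before the start to 20 bases after, 5′ to 3′ on the gene's own strand, and capitals mark matches on either strand to the motifs named in the next paragraph. Sequences are from RefSeq, GRCm38.p6, and where a gene has 2 starts the nearer to the summit is given.
Rpl26, chr11:68901366-68901585, forward strand, summit 128 bp after the start: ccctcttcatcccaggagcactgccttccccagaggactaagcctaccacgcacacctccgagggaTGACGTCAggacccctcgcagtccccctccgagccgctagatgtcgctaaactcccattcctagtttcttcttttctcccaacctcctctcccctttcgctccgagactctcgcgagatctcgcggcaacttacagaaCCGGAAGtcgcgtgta
Rpl27a, chr7:109518995-109519214, forward strand, summit 139 bp after the start: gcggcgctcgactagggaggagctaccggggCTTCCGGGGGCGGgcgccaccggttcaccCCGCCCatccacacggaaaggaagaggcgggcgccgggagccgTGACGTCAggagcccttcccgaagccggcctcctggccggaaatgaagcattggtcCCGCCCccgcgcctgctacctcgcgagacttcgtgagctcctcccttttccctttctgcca
Rpl19, chr11:98026724-98026943, forward strand, summit 412 bp after the start: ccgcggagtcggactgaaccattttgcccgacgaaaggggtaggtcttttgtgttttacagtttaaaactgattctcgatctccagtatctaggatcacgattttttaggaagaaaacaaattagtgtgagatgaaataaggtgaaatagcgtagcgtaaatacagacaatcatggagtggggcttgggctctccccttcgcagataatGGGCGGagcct
Rpl10a, chr17:28328365-28328584, forward strand, summit 568 bp after the start: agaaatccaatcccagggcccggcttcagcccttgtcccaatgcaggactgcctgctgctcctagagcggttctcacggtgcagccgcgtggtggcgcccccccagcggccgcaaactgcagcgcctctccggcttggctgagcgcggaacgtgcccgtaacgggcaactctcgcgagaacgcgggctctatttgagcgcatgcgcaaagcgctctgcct
Rpsa, chr9:120127566-120127785, forward strand, summit 549 bp before the start: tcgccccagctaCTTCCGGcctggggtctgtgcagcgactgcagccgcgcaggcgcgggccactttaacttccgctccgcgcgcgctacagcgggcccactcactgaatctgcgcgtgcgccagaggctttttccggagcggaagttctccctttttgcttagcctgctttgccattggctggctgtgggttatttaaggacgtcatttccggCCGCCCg
Rpl13a, chr7:45128726-45128945, reverse strand, summit 631 bp before the start: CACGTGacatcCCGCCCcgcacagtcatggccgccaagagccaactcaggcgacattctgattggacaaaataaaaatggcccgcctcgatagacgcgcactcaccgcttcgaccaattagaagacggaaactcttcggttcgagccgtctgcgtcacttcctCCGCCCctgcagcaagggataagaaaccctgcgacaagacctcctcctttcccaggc

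Each of 7 motifs was searched on both strands of the 300 bases that begin 250 before the outermost start. Factors of the Sp and Klf families are known to bind GGGCGG. The letters CCGGAAG form the core of sites for the ETS family of activators, and AAGATGGC is a site of YY1, a zinc finger protein. The TATA box was searched as TATAAA, and the E-box, a site of MYC and related proteins, as CACGTG. For CREB, the factor that responds to cyclic AMP and calcium, the full response element (CRE) TGACGTCA was used. The AP-1 site, bound by dimers of Fos and Jun proteins, was searched as TGAGTCA. No motif contains another, though matches may adjoin, as the ETS and Sp matches in Rpl27a do. Rpl26 and Rpl27a, the members with the summits nearest to a start, both hold a CRE match and an ETS match in the stretch shown. Rpsa holds an ETS and an Sp match, Rpl13a an E-box and Sp matches, Rpl19 an Sp match at the start shown, and Rpl10a none. At the outermost Rpl19 start, the one used for the family counts, the stretch holds an ETS and an E-box match instead.

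Across the family the ETS letters were found in 24 of 61 promoters (39.3%), against 12.1% of 17274 protein-coding promoters. The CRE letters were in 5 of 61 (8.20%), against 2.36%, and the YY1 letters likewise in 5 of 61, against 3.23%. Sp letters were in 57.4% against 46.9%, the TATA box in 11.5% against 13.4%, the E-box in 8.20% against 8.01% and AP-1 in 1.64% against 4.60%. A C opening a run of 5 or more pyrimidines stood at the listed start of 13 of 61 members (21.3%), against 2.19% of all promoters, where the outermost listed start was used for each gene. A match describes letters in the window and does not show a bound factor.

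Promoters of members with a summit had more G and C than those without. The median was 62.0% in the 14 members with a summit (range 54.3 to 72.3) and 54.7% in the 47 without (range 34.7 to 67.3). The ranges overlap, but the 47 reach far lower. The CpG count per window had medians of 26 (range 12 to 34) and 19 (range 2 to 35). The ETS letters were in 10 of the 14 and in 14 of the 47. All protein-coding genes showed the same order, with medians of 60.0% with a summit and 53.0% without, and so did those up to the longest member, with 56.5% and 50.3%. The ETS letters differed less there, at 13.1% with a summit and 8.83% without in genes up to the longest member. No test was made of these differences, and the part of base composition or of gene density in them was not tested.

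**Figure D4:**
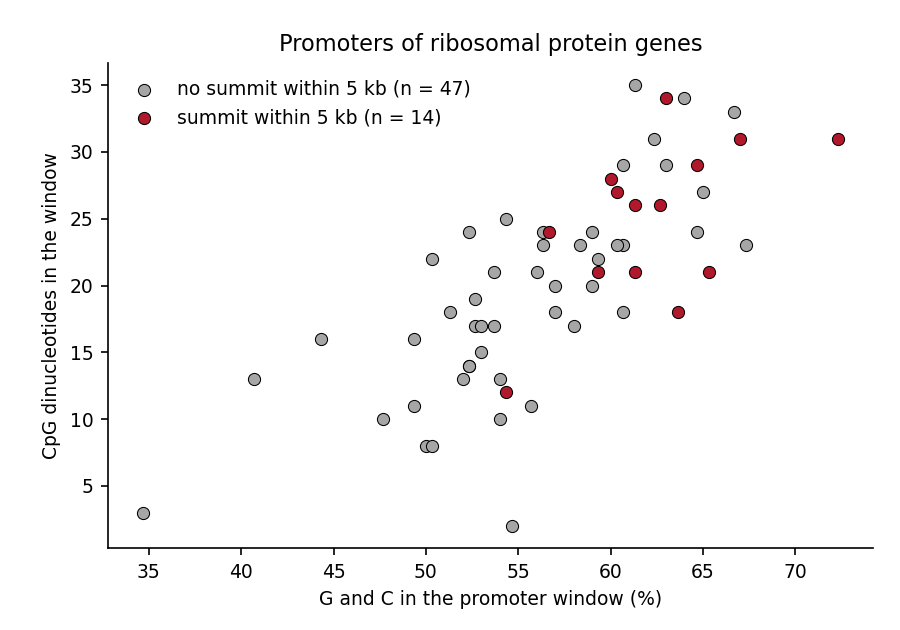
Each point is the 300-base promoter window of one ribosomal protein gene, with the percentage of G and C on the horizontal axis and the count of CpG dinucleotides on the vertical axis, red where the gene has a summit within 5 kb. The 14 red points have a median of 62.0% G and C and 26 CpG, and the 47 grey points 54.7% and 19, with overlap.

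Most members had no summit near them. The 64 without one within 5 kb lay a median of 25.3 kb from the nearest summit (range 5.23 to 596.2). Just outside the limit were Rps24 at 5233 bp, Rpl8 at 5357 bp and Rps12 at 5421 bp, with folds of 2.59, 2.94 and 3.29. Just inside it were Rpl12 at 4500 bp and Rplp2 at 3733 bp, with folds of 2.77 and 2.42. The median distance over all 81 members was 17.6 kb, against 7.63 kb for all protein-coding genes, which more often hold a summit themselves. Farther out the order was not kept, as 17.3% of members and 19.4% of all protein-coding genes lay over 50 kb from any summit. The farthest autosomal members were Rps27a, a ubiquitin fusion gene, at 128.1 kb and Rps28 at 126.0 kb.

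**Figure D5:**
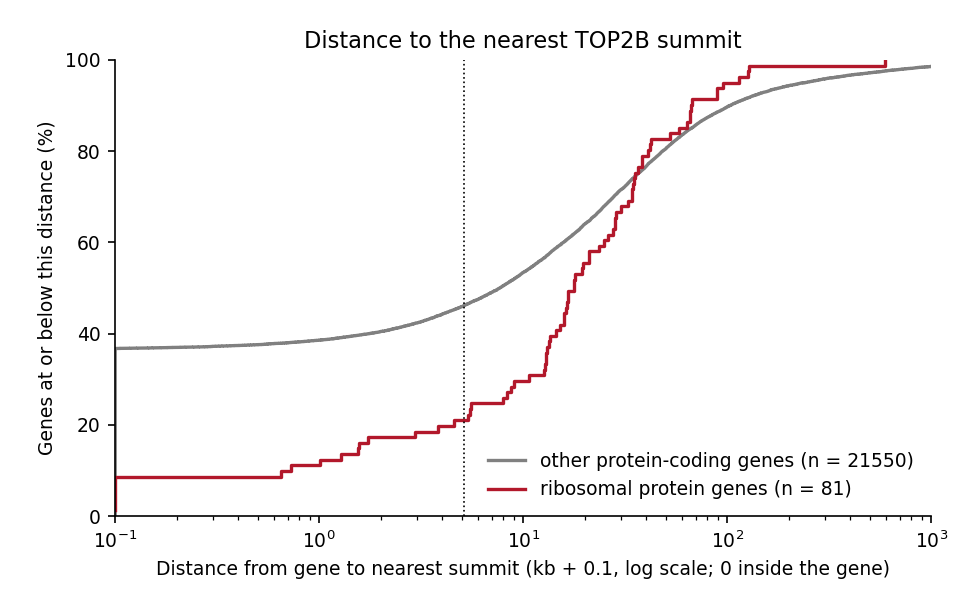
The cumulative percentage of genes is plotted against the distance to the nearest summit on a log axis, with 0.1 kb added to each distance and the 5 kb limit dotted, for 81 ribosomal protein genes (red) and 21550 other protein-coding genes (grey). The red line starts lower, at 8.64%, and has met the grey line before 50 kb. The axis ends at 1000 kb, with grey genes beyond it up to 6729 kb.

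Members with a summit were spread over 8 chromosomes. Chromosome 7 holds 14 members, of which 5 had a summit, among them Rpl13a, Rpl18, Rpl27a and Rplp2. Of all protein-coding genes of chromosome 7, 40.3% had a summit. Chromosomes 9 and 17 hold 7 members each and had 3 with a summit each, and chromosome 11 had 2 of 7. The shares over all their protein-coding genes were 49.1%, 41.5% and 51.3%, in that order. Chromosomes 5 and 10, with 5 members each, had none, where 50.5% and 52.5% of their protein-coding genes had one. The chromosome shares cover genes of all lengths and were not computed for genes up to the longest member. The 4 members on X, Rpl10, Rpl36a, Rpl39 and Rps4x, had none, where 6.83% of the protein-coding genes of X had one. Rpl3l, Rpl10l, Rpl39l and Rps27l, paralogues of narrower expression or of inducible expression, had none within 5 kb either (Wilson interval 0 to 49.0%).

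RefSeq places 58 snoRNA genes inside 29 members, and 7 of these 29 had a summit (24.1%, Wilson interval 12.2 to 42.1), against 10 of 52 members without one (19.2%, interval 10.8 to 31.9). The intervals overlap. No summit lay in a snoRNA gene itself. The number to be expected there was not computed, and with only 7 summits inside members nothing can be concluded from it.

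The other lists of translation genes had a longer median gene length, except the ribosomal protein-like genes, and their differences from the members were not tested. Beside them, all protein-coding genes had a summit at 46.0%, with 1.68 summits per 100 kb and a median length of 17329 bp. Mitochondrial ribosomal protein genes had a summit at 24 of 78 (30.8%, Wilson interval 21.6 to 41.7), with 1.57 summits per 100 kb. Mrps9 led them with a fold of 3.46. Initiation factor genes, taken by their Eif symbols, had 21 of 55 (38.2%, 1.73 per 100 kb), led by Eif2ak4 and Eif4b at 3.63. That choice by symbol also takes in genes for kinases and binding proteins of initiation factors, among them Eif2ak4 and Eif4ebp1. Ribosome assembly genes had 12 of 36 (33.3%, 1.74 per 100 kb), led by Bysl at 4.15, and cytosolic aminoacyl-tRNA synthetase genes 9 of 20 (45.0%, 1.78 per 100 kb), led by Wars and Yars at 3.63. Genes of growth signalling to ribosomes had 9 of 16 (56.3%, 2.23 per 100 kb), with a median length of 40023.5 bp. Rptor, the mTOR partner, held 12 of the 28 summits of that list. Elongation and release factor genes had 8 of 12 (66.7%, Wilson interval 39.1 to 86.2) and 3.43 per 100 kb, the highest density of these lists, from 12 summits. Gspt1, a release factor gene, led them with 3.80, followed by Eef1a2, the elongation factor gene of neurons and muscle, with 3.46. Ribosomal protein-like genes, those with an Rpl or Rps symbol that the rule leaves out, had 1 of 10, Rpl7l1. They are a mixed list. It includes Rps3a1, which encodes a small subunit protein, so the members do not cover the whole ribosome. It also includes Rps19bp1, the gene of a binding protein. Fau, which encodes a ribosomal protein fused to a ubiquitin-like protein, had none within 5 kb.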

How the data were processed

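TOP2B with its DNA was precipitated in native form, and one strand was digested by exonuclease before linear amplification, per the labels' protocols. The submitters' processing notes name MACS2, BWA, SAMtools, Trimmomatic and FastQC, and the builds mm10 and GRCm38.p6. Not given in the sources used here are their versions, the caller's settings, and how duplicates and reads mapping to several places were treated, which bears on genes with near-identical pseudogenes. The deposited list gives a fold (linear ratio), a −log10 p and a −log10 q per peak, identified by the narrowPeak column order, and a display score, deposited by the authors, that was not used. The smallest −log10 p was 2.00, so absence from the list shows no level. Positions deposited by the authors were made 1-based. Of 35539 entries, 34 on scaffolds were left out.

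Summits were matched to the RefSeq gene table of GRCm38.p6 with Python 3.11.15, pandas 2.3.3, NumPy 2.4.6 and SciPy 1.17.1. Pileup and control level were reconstructed from fold and p within 0.002, uniquely for 35495 of 35505 entries, among them every summit reported. Shares have Wilson intervals and densities exact Poisson intervals. The steps were checked on simulated data. Neither tests of enrichment nor random positions were used, since 1 pooled list has no replicates. The table has neither exons nor genome sequence, so exons, introns and UTRs were not assigned. The members and lists were chosen with earlier results of these data known. Members with a summit were named, the 10 strongest in full, and of other lists at most 3 genes. The printed promoters extend the planned limit of 500 bp from a start to 1 kb, and the length limit on genes, the sides of the gene, snoRNA genes and base composition were added after the data were seen. Alternatives were other windows (0, 1 and 10 kb), whole peak intervals, stricter peaks, autosomes, nearest gene, entries within 200 bp merged, and no paralogues of narrow expression. Some items that the naming rule selects are not reported here.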

Additional observations from a re-analysis of the deposited data

How the results depend on the processing

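The count of 17 members with a summit became 7 for summits inside the gene only, 10 within 1 kb, 6 with peaks of q 0.05 or less and 11 where the member had to be the nearest protein-coding gene, and 24 within 10 kb. The 19 summits became 7, 10, 6 and 12 under the same rules and 33 within 10 kb. The median fold of 2.94 rose to 3.35 with q of 0.05 or less, a rule that keeps summits of high fold. Narrower windows hold less sequence and stricter lists fewer peaks. The other alternatives (whole intervals, folds at or above the median of the list, autosomes only, merged entries, no paralogues) gave 13 to 18 members, and 14 to 20 summits. No paired analysis was possible because the authors pooled the libraries into 1 list. Of the 19 summits, 13 had a q above 0.05, and a member without a summit may lie under the caller's threshold. The part of depth in this was not tested, since depth is not known.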

Other observations

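Ribosomal protein genes have many processed copies in the genome, and 324 pseudogenes of RefSeq carry an Rpl or Rps symbol. Of these, 47 had a summit in the pseudogene or within 5 kb (14.5%, 95% Wilson interval 11.1 to 18.8), against 12.7% of all 10508 pseudogenes. A summit lay inside the pseudogene in 2 cases, a count not made for all pseudogenes. Their median length was 533 bp, against 920 bp for all pseudogenes. The strongest was at Rps13-ps4, with 3 summits in its window, the highest of fold 3.80 and q 0.00162. Rpl21-ps11 and Rpl23a-ps2 followed with a fold of 3.29 each. The parent genes Rps13, Rpl21 and Rpl23a had no summit within 5 kb, as was the case for 64 of the 81 members.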
